A study of Mus musculus with 3 samples.

Results

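The comparison is of donor CD8+ T cells from mice given a low dose of cyclosporine A (CSA, 5 mg/kg) and mice given saline. Its members were all cells that the authors listed as CD8+ in these groups, 2662 with CSA 5 mg/kg and 4639 with saline, or 7301 of 10833 CD8+ cells and of 21204 cells in all. Irradiated B6D2F1 recipients of both groups received B6 bone marrow, B6 T cells and TEa T cells, which carry a transgenic CD4+ T cell receptor (TCR), and were injected daily from day 0 to day 6 with saline or CSA. Another group, given CSA at 50 mg/kg (3532 CD8+ cells), had the same graft and schedule but its own capture, entered the same fit, and is set beside the low dose below. The age of the mice is not given in the sources used here. Spleens were taken on day 7 from 6 mice per group and joined by 2, so that each group had 3 pools, from which donor T cells of both lineages were sorted and mixed at equal numbers. Hashtag antibodies marked the pools, but a group's pools went through 1 droplet capture together, so treatment and capture cannot be told apart in any value below. The p-values below measure the spread between these pools.

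CSA binds the cytosolic protein cyclophilin A, and the complex blocks calcineurin, the phosphatase that TCR signals switch on through calcium. Calcineurin releases the NFAT transcription factors into the nucleus, where they drive cytokine genes and, with AP-1 factors such as Batf and with Irf4, genes of activation and exhaustion. CD8+ T cells that recognise the recipient's tissue are among the cells that cause graft-versus-host disease (GVHD), and CSA is given to patients to prevent it.

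A pool of the comparison held between 692 and 1615 CD8+ cells and between 4392100 and 8415423 unique molecular identifiers (UMIs, each counting 1 captured RNA molecule). The median CD8+ cell held 4108 UMIs with saline and 6121.5 with CSA 5 mg/kg, and the median share of mitochondrial UMIs was between 1.81% and 1.83% in the saline pools and between 1.59% and 1.62% in the CSA 5 mg/kg pools. Cells with 2 strong hashtags, which can be doublets, made up 3.75% of the saline and 9.02% of the CSA 5 mg/kg cells, and 15.7% in CSA 5 mg/kg pool 3. Among 10783 distinct barcodes, 50 occurred in more than 1 capture. All 7 CD8+ T cell markers (Cd8a, Cd8b1, Cd3e, Cd3d, Cd3g, Trac and Trbc2) were read in every pool. Cd4, the B cell genes Ms4a1 and Pax5, the natural killer cell gene Ncr1 and the gamma delta T cell gene Tcrg-C1 stayed under 10 UMIs in every pool, with Cd4 at 0. Other markers of those cells were read: in the 6 pools compared Zbtb7b had 60 to 165 UMIs, Foxp3 17 to 47, Cd40lg 30 to 74, Cd79b 132 to 179 and Klrb1c 28 to 82, and Cd40lg, Cd79b and Klrb1c were called higher at 5 mg/kg. A list of 20 myeloid genes, of which 16 were tested, was higher for 9 and lower for none, beside 29.9% higher and 30.3% lower of all genes. With scaling by library size alone 2 were higher and 3 lower. The summed level of the list ran from 390 to 448 UMIs scaled to a common total (CPM, with the TMM scaling given below) in the saline pools. It ran from 564 to 698 CPM in the CSA 5 mg/kg pools, and the part of such cells in the results was not tested. Of 9 tested B and plasma cell genes 4 were higher and 0 lower, and 2 and 0 with library size alone. Jchain had 346 UMIs in CSA 5 mg/kg pool 2 against 3 and 1 in the other pools of that group.

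The clusters that the authors gave the cells were distributed differently in the groups. C4, cycling Cd226hi effector cells, made up 21.9% ± 1.36 of the saline pools and 3.06% ± 0.11 of the CSA 5 mg/kg pools (SD, n = 3 pools). C0, their non-cycling counterpart, made up 20.3% ± 1.29 and 8.05% ± 1.00. The Cd226lo effector cells stood the other way round, C1 at 7.87% ± 0.798 with saline and 18.5% ± 2.26 at 5 mg/kg and the cycling C2 at 17.1% ± 0.646 and 30.5% ± 2.81, as did the naive cells of C7, at 2.49% ± 0.282 and 6.11% ± 2.09. The pools did not overlap in these 5 clusters, for which the exact permutation test gave its smallest possible p of 0.1 (0.18 after Benjamini-Hochberg adjustment over 9 clusters). The pools overlapped in the other clusters, with 14.3% ± 0.42 and 15.8% ± 1.65 in C3 (cycling effector cells #2), 9.63% ± 0.98 and 10.4% ± 1.03 in C5 (Tcf7hi stem-like cells), 4.06% ± 1.03 and 5.50% ± 1.61 in C6 (Fcer1ghi cells), and 2.33% ± 0.559 and 2.12% ± 0.831 in C8 (exhausted cells). The cycling clusters C2, C3 and C4 together held 53.3% ± 0.993 of saline and 49.3% ± 3.98 of CSA 5 mg/kg cells (exact permutation p = 0.2).

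**Figure D1:**
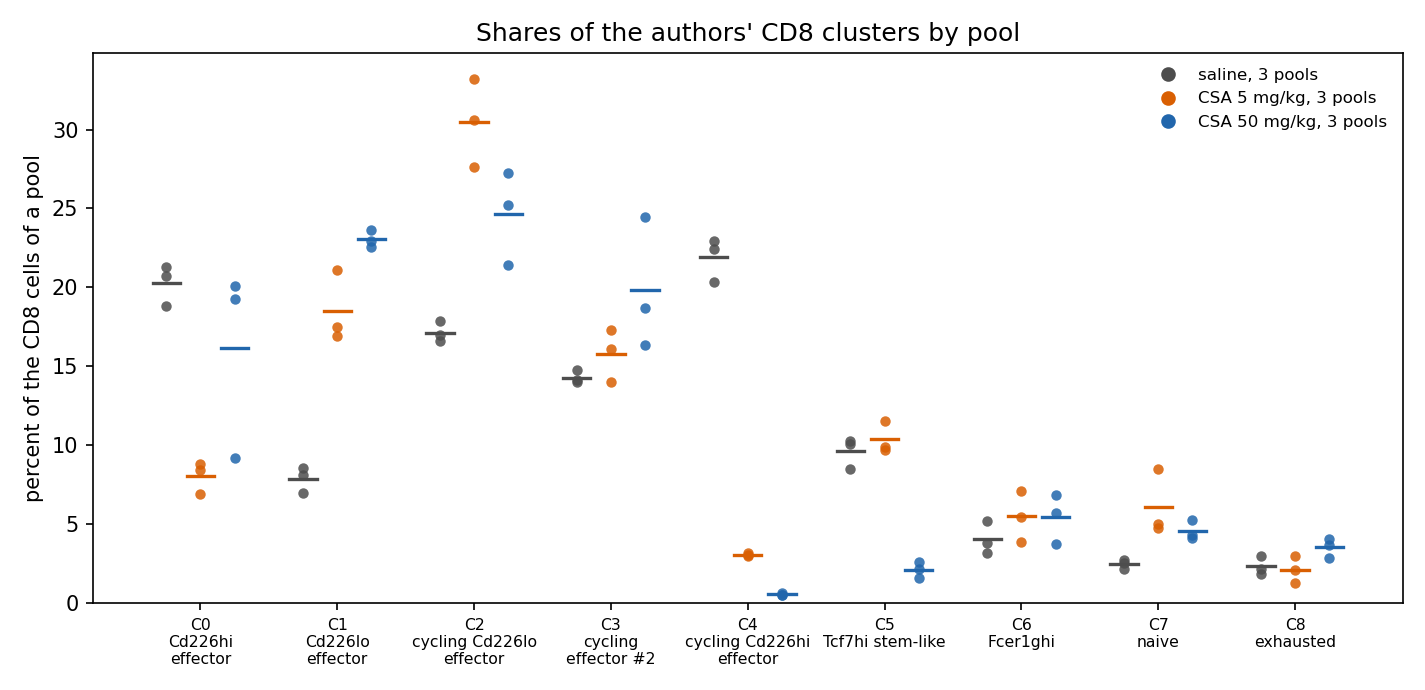
Percent of the CD8+ cells of a pool (y axis) in each of the authors' 9 clusters (x axis), with a point for each pool of 2 mice and a line at the mean of 3 pools. C4 held 20.3% or more of every saline pool and 3.18% or less in every CSA 5 mg/kg pool, while C5 overlapped between saline and 5 mg/kg and was lower at 50 mg/kg.

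Most of the genes that could be tested differed between the CSA 5 mg/kg and the saline pools. UMIs were summed per pool and tested with edgeR's quasi-likelihood test over all 9 pools, with scaling by the trimmed mean of M-values (TMM), and a gene was called at a Benjamini-Hochberg adjusted p under 0.05. Of 10841 genes tested, 3241 were higher and 3282 lower at CSA 5 mg/kg than with saline, 60.2% in all. In the same fit, CSA 50 mg/kg differed from saline in 74.0% of genes. The pools of CSA 5 mg/kg and saline did not overlap for 66.0% of genes. Only 410 called genes were higher and 259 lower by 2-fold or more. The even split rests on the scaling: with library size alone, 1180 genes were higher and 6270 lower, and the median gene fell by 0.43 on the log2 scale, so changes below are relative to the TMM scale, on which the median gene stood at -0.00247. In sums over a pool, fewer cells of a kind and less RNA per cell cannot be told apart. Some of the leading results are therefore also given within the authors' clusters, and those given only as sums can hold both.

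Among called genes whose mean reached 50 CPM and whose pools stayed apart, the 6 largest rises were all in small proteins of the ribosome or of ATP synthase. Rpl38, a protein of the large ribosomal subunit (mm10 chr11:114668524-114672331), stood at 482, 473 and 497 CPM in the saline pools and at 2102, 2022 and 2013 CPM at 5 mg/kg, a 4.23-fold rise (log2 2.08 ± 0.04 SE, adjusted p = 3.62e-17). Every CSA 5 mg/kg pool lay above every saline pool, as the rule required. Each also lay above the 3 pools of 50 mg/kg, at 1396, 1380 and 1423 CPM. Rps28 (log2 2.08 ± 0.04), Rps29 (1.96 ± 0.04), Rps21 (1.95 ± 0.04) and Rpl41 (1.92 ± 0.04) are likewise ribosomal proteins, and Atp5k (1.97 ± 0.05) is a subunit of mitochondrial ATP synthase. All 6 were also above the pools of 50 mg/kg, by 0.25 for Rpl41 up to 0.61 for Rps29. Ribosomal protein genes have many processed pseudogenes of near-identical sequence, so how their reads were divided could shift single values.

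All 79 cytosolic ribosomal protein genes rose, by a median of 1.14 on the log2 scale (range 0.61 to 2.08), beside a median of -0.00247 over all genes tested. All 79 were also called with library size scaling, with transcript length as an offset, and in cells outside the cycling clusters. Within single clusters, 79 of 79 rose in C0, C2, C3 and C5, 78 in C6, 54 in C1, 24 in C4 with 3 lower, and 18 in C7. Of all genes tested, 859 of 7919 were higher in C0, 1788 of 9386 in C2 and 1558 of 8034 in C3. The numbers were 1079 of 6654 in C5, 391 of 4877 in C6 and 247 of 7011 in C1. In C4 it was 160 of 8404, and in C7 23 of 3357. The median change of the ribosomal protein genes was 0.26 in C1, 0.20 in C4 and 0.04 in C7, and from 0.66 in C2 to 1.15 in C5 in the others. These genes summed to between 108623 and 113429 CPM of the saline pools and between 244878 and 258423 CPM of the CSA 5 mg/kg pools. At 50 mg/kg their median change was 1.26, and 14 of the 79 were highest at the low dose.

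Nuclear genes of oxidative phosphorylation (OXPHOS), the respiratory chain that makes ATP in mitochondria, rose in the same manner. Of 37 genes of complex I, 36 rose and 1 fell (median 0.98), and of 42 genes of complexes II to V, 41 rose and 1 fell (median 1.00). At 50 mg/kg the medians were 1.14 and 1.10. Set against 50 mg/kg, 2 genes of complex I were higher and 15 lower at 5 mg/kg, and 7 and 18 of complexes II to V. Ndufa3 of complex I stood at 113, 110 and 113 CPM with saline and at 396, 391 and 385 CPM at 5 mg/kg (log2 1.80 ± 0.04, adjusted p = 2.64e-16 by edgeR). Atp5e of ATP synthase (1.76 ± 0.04), Cox7c (1.65 ± 0.04) and Cox6c (1.45 ± 0.04) of cytochrome c oxidase showed the same pattern, each with separate pools. Outside the cycling clusters 36 genes of complex I rose and none fell, beside 2296 higher of all 9591 genes tested there. Within clusters the number that rose was 30 in C0, 35 in C2, 34 in C3 and C5, 22 in C6, 12 in C1, 5 in C4 and 0 in C7. The median change of complex I genes was 0.22 in C1, 0.17 in C4 and -0.07 in C7, and from 0.64 in C6 to 0.85 in C3 in the others. The 13 genes that mitochondria encode themselves rose less: 9 were higher and 1 lower with a median of 0.17, and with library size scaling 1 was higher and 12 lower. mt-Nd3 was the most changed of those named, at 73.4, 77.2 and 69.5 CPM with saline and 132, 120 and 135 CPM at 5 mg/kg (log2 0.82 ± 0.06, adjusted p = 1.27e-09 by edgeR), against 0.32 ± 0.03 for mt-Co3. With transcript length as an offset mt-Nd3 was not called (0.15).

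Among the 6 largest falls were Hist1h1a, Itga4, Gm26917, Huwe1 and Lyst. Itga4 (mm10 chr2:79255426-79333123), the alpha 4 integrin by which T cells enter gut and inflamed tissue, stood at 1549, 1604 and 1519 CPM with saline and at 562, 635 and 653 CPM at 5 mg/kg, a 2.52-fold fall (log2 -1.33 ± 0.07, adjusted p = 1.87e-11 by edgeR). It fell within 6 of 8 clusters, from -0.82 ± 0.09 in C1 to -1.41 ± 0.12 in C6, and was not called in C4 (0.16 ± 0.10) or C7 (0.26 ± 0.32). Hist1h1a, a linker histone made in S phase, fell by 1.40, and it was lower in 8 of 8 clusters. Also among them were Huwe1 (-1.20 ± 0.07), a large ubiquitin ligase, Lyst (-1.13 ± 0.08), a regulator of lysosome and lytic granule size, and the predicted gene Gm26917 (-1.31 ± 0.05). For these 5 genes the pools of 50 mg/kg lay lower still.

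The log2 change, with its sign, tended to be lower for longer transcripts. Among 10755 tested genes with a length in the GENCODE annotation (99.2%), the median log2 change was 0.35 in the decile of shortest transcripts and -0.47 in the longest, and Spearman's rho between length and change was -0.39 across genes, which are not independent replicates. CD4+ cells, which shared the captures, gave the same rho of -0.39 (10486 genes). Within clusters rho ran from -0.23 in C1 to -0.40 in C5, but was 0.05 in C4 and 0.0067 in C7. With length as an offset rho was 0.016, and 2994 genes were higher and 2998 lower. The part of transcript length, depth per cell or capture in these changes was not tested beyond these fits.

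**Figure D2:**
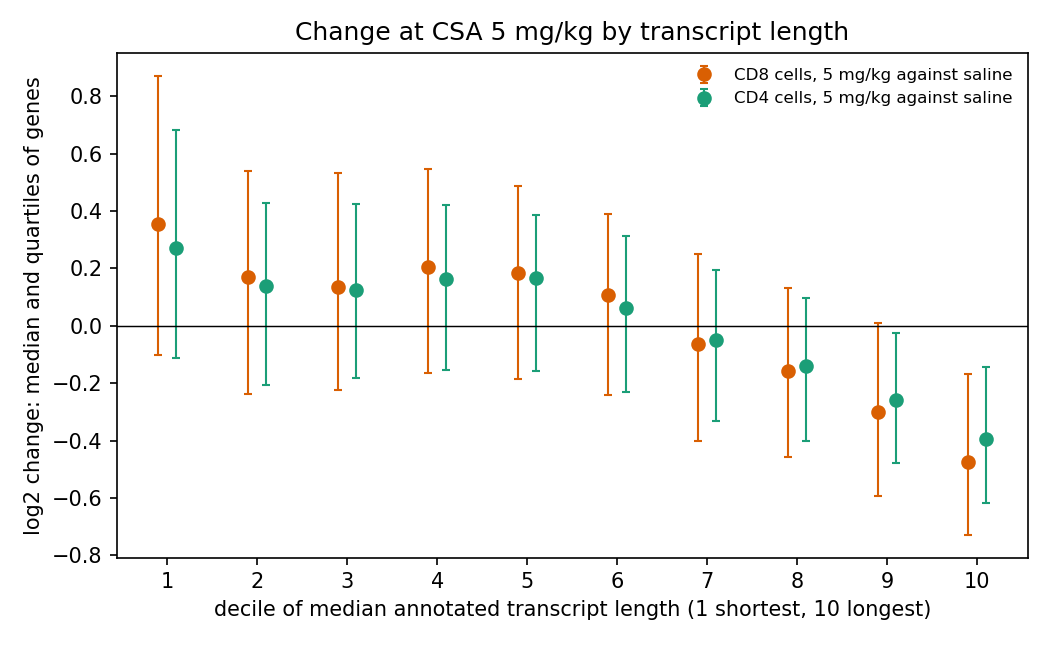
Log2 change at CSA 5 mg/kg against saline (y axis; point at the median, bars at the quartiles of genes) by decile of annotated transcript length (x axis, 1 the shortest) in CD8+ and CD4+ cells. The CD8+ median ran from 0.35 in the first decile to -0.47 in the tenth, and the CD4+ median from 0.27 to -0.40.

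A smaller set of genes was particular to the low dose in the sense that CSA 5 mg/kg differed from saline and from CSA 50 mg/kg in the same direction. Against 50 mg/kg alone, 41.0% of genes differed. Of the 10841 genes, 372 (3.43%) were highest and 262 (2.42%) lowest at 5 mg/kg, together 5.85%. Both contrasts use the CSA 5 mg/kg pools, so they are not independent, and a trait of that capture would enter both. The highest genes had a median log2 difference of 0.61 from saline and 0.38 from 50 mg/kg, and 27 of them passed 2-fold in both, as did 8 of the lowest. Their median transcript length was 894.5 bases for the highest and 1670.5 for the lowest genes, beside 1301 over all genes tested. Of genes highest at the low dose, 183 had a mean of at least 50 CPM and CSA 5 mg/kg pools above the other 6, and of the lowest genes 118 met the mirrored rule. Whatever their call or level, 4.54% of genes had all 5 mg/kg pools above the other 6, and 3.75% had them below. The 8 of each with the largest smaller difference are described next.

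Ifitm1 and Ifitm3, neighbours on chromosome 7, led the genes that were highest at the low dose. They encode interferon-induced membrane proteins that block the entry of viruses into cells. Ifitm1 (mm10 chr7:140967221-140969825) stood at 208, 188 and 218 CPM in the saline pools, at 598, 639 and 743 CPM at 5 mg/kg and at 120, 87.4 and 128 CPM at 50 mg/kg. The low dose was thus 3.24-fold above saline (log2 1.69 ± 0.10, adjusted p = 6.33e-11 by edgeR) and 5.90-fold above the high dose (2.56 ± 0.10, adjusted p = 2.14e-12), while the high dose was below saline (-0.87). Ifitm3 (mm10 chr7:141009586-141010770) stood at 50.3, 44.6 and 53.7 CPM with saline, 117, 139 and 131 at 5 mg/kg and 27.2, 21.4 and 19.3 CPM at 50 mg/kg, with log2 differences of 1.39 ± 0.09 and 2.54 ± 0.10. As the rule required, no pool of 5 mg/kg overlapped a pool of the other groups for either gene.

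Both genes were higher in the same 6 of 8 clusters, C0, C1, C2, C3, C4 and C6. Ifitm1 rose by between 0.94 ± 0.20 in C2 and 2.00 ± 0.17 in C4, and stood at -0.38 ± 0.23 in the stem-like C5 and -0.76 ± 0.36 in the naive C7, neither of which passed the threshold. Ifitm3 rose by between 0.75 ± 0.24 in C6 and 1.42 ± 0.15 in C3, with -0.55 ± 0.31 in C5 and -1.27 ± 0.47 in C7. In CD4+ cells of the same pools Ifitm1 rose by 1.30 ± 0.13 and Ifitm3 by 1.28 ± 0.08, and neither change differed from that of CD8+ cells past the threshold (difference 0.37 ± 0.13, adjusted p = 0.127, and 0.08 ± 0.10, adjusted p = 0.771, by edgeR).

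The sequences that end at the RefSeq start of these genes and of Socs1, also highest at the low dose, are shown because the 3 genes are known targets of interferon or cytokine signals. They are the 250 bases before the start in the RefSeq annotation of GRCm38.p6 (the mm10 build), whereas the gene positions in the text are those of GENCODE, on the strand of the gene, at chr7:140967826-140968075 for Ifitm1 (forward), chr7:141010745-141010994 for Ifitm3 (reverse) and chr16:10785537-10785786 for Socs1 (reverse). Capitals mark matches, on either strand, to GAAANNGAA, a core of the interferon-stimulated response element, or to TGANTCA, the core that AP-1 factors bind.
Ifitm1: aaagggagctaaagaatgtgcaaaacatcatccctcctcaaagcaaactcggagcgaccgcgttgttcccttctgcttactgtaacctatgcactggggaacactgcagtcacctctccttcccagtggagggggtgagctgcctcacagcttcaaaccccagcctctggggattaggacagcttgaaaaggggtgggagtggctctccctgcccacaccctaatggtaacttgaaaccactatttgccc
Ifitm3: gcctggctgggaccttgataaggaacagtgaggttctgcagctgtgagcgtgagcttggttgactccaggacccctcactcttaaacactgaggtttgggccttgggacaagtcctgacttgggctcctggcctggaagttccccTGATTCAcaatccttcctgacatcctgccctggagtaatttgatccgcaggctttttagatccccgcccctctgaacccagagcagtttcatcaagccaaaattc
Socs1: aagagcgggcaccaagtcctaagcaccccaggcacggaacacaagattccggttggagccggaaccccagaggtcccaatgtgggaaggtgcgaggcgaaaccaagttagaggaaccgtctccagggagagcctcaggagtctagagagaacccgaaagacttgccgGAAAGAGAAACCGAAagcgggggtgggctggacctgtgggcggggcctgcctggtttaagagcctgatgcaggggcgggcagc
GAAANNGAA was found in 7.13% and TGANTCA in 6.75% of 32851 mouse promoters of this length. Socs1 held 2 overlapping matches to the first, Ifitm3 held 1 match to the second, and Ifitm1 held neither in this window. The annotations place starts differently: the Ifitm1 window lies within the GENCODE gene, which has an earlier start that was not searched, and the Ifitm3 window overlaps the first bases of the GENCODE gene. Of the 16 genes highest or lowest at the low dose that are described here, 12 had an entry. Among those not shown, 2310001H17Rik, also highest, held 1 match to the first motif. Ifi209, lowest at the low dose, held 1 match to the second, and the rest held neither. These matches are letters in a window and not measured binding.

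Socs1 (mm10 chr16:10782240-10785536), which encodes an inhibitor of JAK kinases that limits interferon and interleukin signals, stood at 46.3, 41.4 and 55.8 CPM with saline, 80.9, 87.6 and 80.4 at 5 mg/kg and 40.6, 43.3 and 36.9 CPM at 50 mg/kg. It was 1.73-fold above saline (log2 0.79 ± 0.09, adjusted p = 4.71e-07 by edgeR) and 2.07-fold above the high dose (1.05 ± 0.09), and it rose within C0, C2, C3 and C5. Batf (mm10 chr12:85686669-85709087), an AP-1 family factor that works with Irf4 in activated T cells, stood at 162, 172 and 166 CPM with saline, 272, 286 and 293 at 5 mg/kg and 131, 133 and 159 CPM at 50 mg/kg. The 3 low-dose pools were above the other 6, again as the rule required. The differences were 0.77 ± 0.06 against saline (adjusted p = 4.74e-09 by edgeR) and 1.01 ± 0.06 against 50 mg/kg. Batf was higher in 5 of 8 clusters, most in C5 (1.06 ± 0.12), with values of 0.13 ± 0.11 in C1, 0.32 ± 0.16 in C4 and -0.28 ± 0.28 in C7 that were not called.

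Of the other 4 genes, 2310001H17Rik, which has no established function, stood at 35.1, 41.3 and 42.3 CPM with saline and at 88.0, 88.8 and 80.6 CPM at 5 mg/kg (log2 1.10 ± 0.08), with a difference of 0.97 ± 0.08 from 50 mg/kg. It rose in 4 of 7 clusters, by up to 1.49 ± 0.16 in C5. Rilpl2, which takes part in membrane traffic, rose by 0.66 ± 0.10 and was 0.81 ± 0.10 above the high dose, with 3 of 8 clusters called. Fcer1g, the gamma chain adaptor of Fc receptors, stood at 57.3, 59.7 and 65.2 CPM with saline, 84.6, 121 and 117 at 5 mg/kg and 40.2, 66.9 and 57.2 CPM at 50 mg/kg. Its rise of 0.84 ± 0.13 against saline was called within a single cluster, C3 (1.40 ± 0.24), and Fcer1g is itself 1 of the myeloid genes listed above. Outside the cycling clusters its difference from 50 mg/kg was 0.31 and no longer called.

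Hist1h2ae, a replication-dependent H2A histone, was the only 1 of these 16 genes called in both directions between clusters. It stood at 328, 317 and 302 CPM with saline, 543, 531 and 586 at 5 mg/kg and 191, 185 and 199 CPM at 50 mg/kg (log2 0.81 ± 0.05 against saline and 1.53 ± 0.05 against 50 mg/kg). It rose in the cycling C2 (0.84 ± 0.06) and C4 (0.88 ± 0.12) and fell in C1 (-0.63 ± 0.12), C5 (-0.46 ± 0.14) and C6 (-0.61 ± 0.18). The change was -0.18 in cells outside the cycling clusters, where it was called as lower, and 0.02, not called, among cells of 4000 to 8000 UMIs. The H2A genes are near-identical copies, so their reads can be misassigned.

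**Figure D3:**
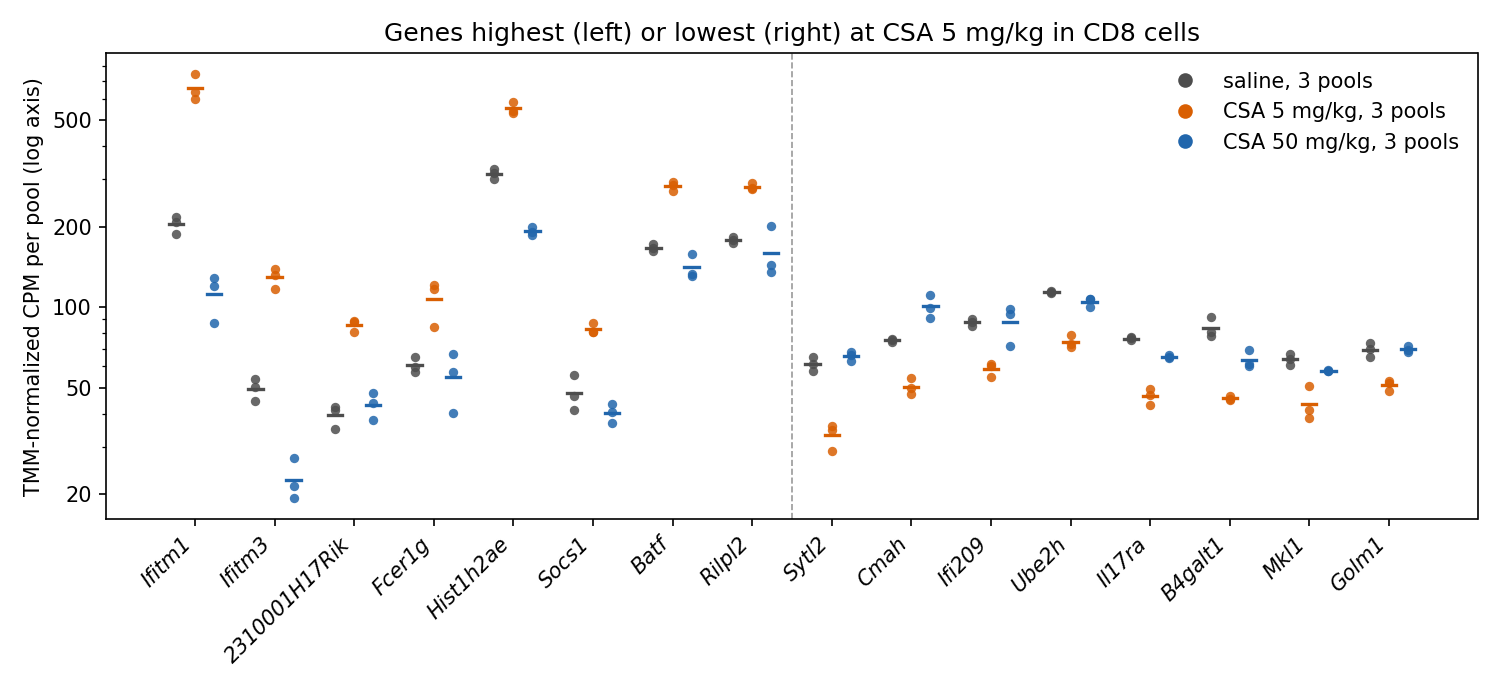
TMM-normalized CPM per pool (y axis, log scale) of the 8 genes highest and the 8 lowest at CSA 5 mg/kg (x axis), with a point for each pool of 2 mice and a line at the mean of 3 pools. In each gene the 3 low-dose pools lie above (left) or below (right) the 6 pools of saline and 50 mg/kg, as the rule required, and Ifitm1 runs from 87.4 CPM at 50 mg/kg to 743 CPM at 5 mg/kg.

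Sytl2 led the genes that were lowest at the low dose. It encodes a synaptotagmin-like protein that tethers secretory granules, cytotoxic granules among them, to the plasma membrane. Sytl2 (mm10 chr7:90302252-90410719) stood at 65.4, 57.8 and 61.4 CPM with saline, 34.8, 29.0 and 35.9 at 5 mg/kg and 68.2, 62.7 and 66.5 CPM at 50 mg/kg. The low dose was 1.84-fold below saline (log2 -0.88 ± 0.08, adjusted p = 2.99e-08 by edgeR) and 1.97-fold below the high dose (-0.98 ± 0.08), and the high dose did not differ from saline past the threshold (0.10, adjusted p = 0.189).

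Cmah, the enzyme that turns the sialic acid Neu5Ac into Neu5Gc, stood at 74.3, 75.2 and 75.7 CPM with saline, 54.2, 47.2 and 49.7 at 5 mg/kg and 91.4, 99.6 and 111 CPM at 50 mg/kg. Its change was -0.58 ± 0.07 at the low dose and 0.43 at the high dose, both called, so the doses lay on opposite sides of saline. B4galt1, a galactosyltransferase of the Golgi, was lower at both doses but lowest at 5 mg/kg, with 91.8, 78.3 and 80.8 CPM for saline, 45.1, 46.5 and 45.2 CPM at 5 mg/kg and 61.0, 69.3 and 60.2 CPM at 50 mg/kg. Il17ra, a subunit of the interleukin 17 receptor, followed the same order at 76.4, 77.0 and 75.5, then 49.6, 43.1 and 46.9, then 65.0, 64.4 and 66.5 CPM (log2 -0.72 ± 0.06 against saline and -0.50 ± 0.06 against 50 mg/kg).

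The other lowest genes were Ube2h, a ubiquitin-conjugating enzyme (-0.62 ± 0.05 against saline and -0.50 ± 0.05 against 50 mg/kg), Ifi209, an interferon-inducible PYHIN gene (-0.59 ± 0.10 and -0.58 ± 0.10), Mkl1, a coactivator of serum response factor (-0.58 ± 0.08 and -0.44 ± 0.08), and Golm1, a Golgi membrane protein (-0.43 ± 0.06 and -0.44 ± 0.06). Ifi209 and other genes of its family are close paralogs, so its value is uncertain to that extent. Among cells of 4000 to 8000 UMIs the falls of Ifi209 (-0.03) and Golm1 (-0.22) were not called. All 8 were called as lower in C2 and C3, and none was called in C4, C1 or C7.

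**Figure D4:**
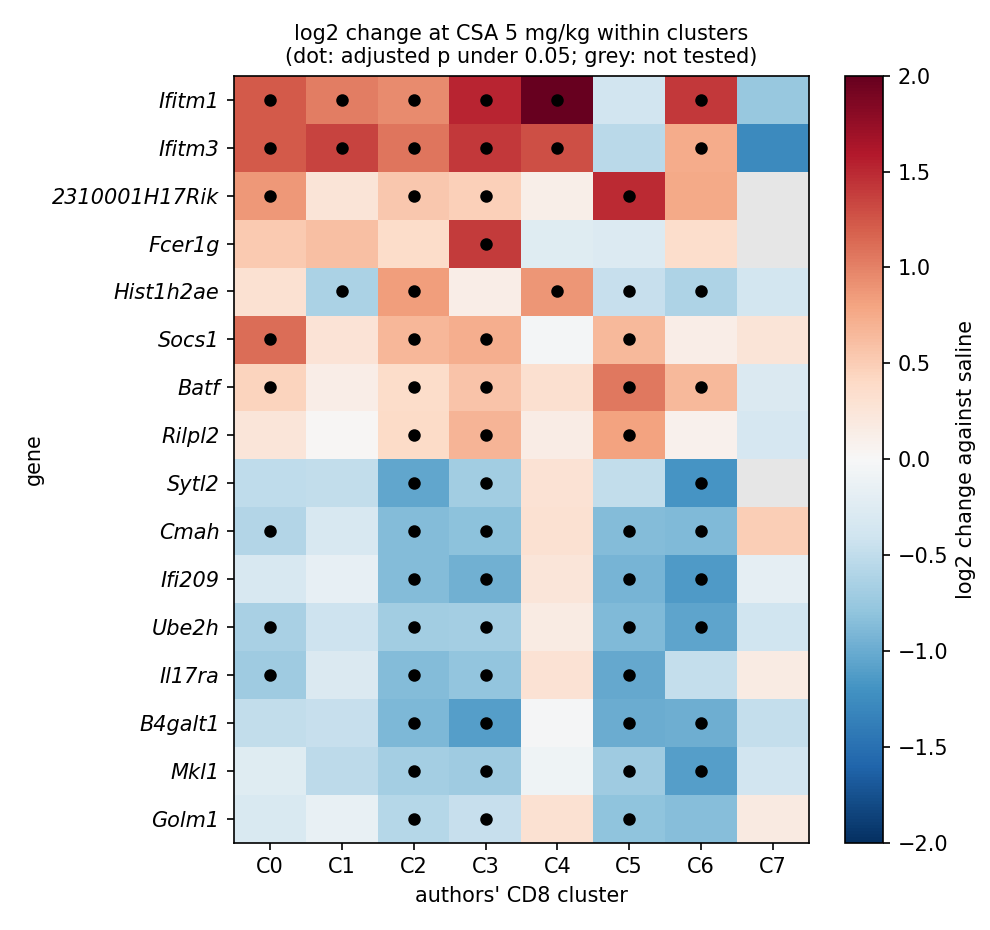
Log2 change at CSA 5 mg/kg against saline (colour scale from -2 to 2) of the 16 low-dose genes (y axis) within the authors' clusters C0 to C7 (x axis), where a dot marks an adjusted p under 0.05 and grey a gene not tested. Ifitm1 and Ifitm3 are red in 6 clusters and blue in C5 and C7, and the 8 lower genes are blue in C2, C3, C5 and C6.

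Clusters differed in how many genes were called. The percent of genes called at 5 mg/kg against saline was 37.5 in C2, 36.1 in C3, 36.6 in C5, 16.5 in C0, 13.3 in C6, 5.48 in C1, 3.21 in C4 and 1.10 in C7. C4 held 22 to 33 cells per CSA 5 mg/kg pool and was fitted without the 50 mg/kg pools, which held 6 or 7 cells each. C8 was not tested, since 1 pool held 9 of its cells. Genes highest and lowest at the low dose within a cluster numbered 165 and 108 in C2, 135 and 54 in C3, 77 and 37 in C5, 47 and 26 in C0, 48 and 7 in C1, 22 and 1 in C6, and 18 and 2 in C7.

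Gene lists written from general knowledge are given next by role, each with its count at 5 mg/kg beside the 29.9% of all genes that were higher and the 30.3% that were lower. The effector genes moved in both directions: of 19 tested cytotoxic genes 8 rose and 4 fell (median 0.13, and -0.29 with library size scaling, where 5 rose and 9 fell). Nkg7, a granule protein of cytotoxic cells, stood at 1926, 1992 and 1925 CPM with saline and 2788, 2830 and 2864 CPM at 5 mg/kg (log2 0.54 ± 0.03, adjusted p = 1.69e-10 by edgeR). Srgn, the proteoglycan that packs granules, rose by 0.66 ± 0.04. Cst7, an inhibitor of granule cathepsins, rose from 172, 178 and 167 to 286, 257 and 285 CPM (0.68 ± 0.05) and was above the 201, 196 and 194 CPM of 50 mg/kg. Perforin (Prf1) fell by 0.26 on the log2 scale, from 272, 276 and 251 to 208, 224 and 233 CPM, but was not called with transcript length as an offset (-0.10), and Fas ligand (Fasl) fell by 0.46. Gzma, Serpinb6b and Cst7 were the cytotoxic genes highest at the low dose.

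Chemokine and cytokine genes rose more often than they fell, 7 against 1 of 13 tested (median 0.56, and 0.08 at 50 mg/kg), but with library size scaling 4 rose and 5 fell. Ccl5, a chemokine that draws T cells and monocytes, stood at 1747, 1721 and 1788 CPM with saline, 3877, 3932 and 3912 at 5 mg/kg and 14376, 15418 and 12600 CPM at 50 mg/kg. Its rise of 1.16 ± 0.05 at the low dose (adjusted p = 2.03e-12 by edgeR) was called in 6 of 8 clusters and was 2.58 ± 0.06 in C0, against 0.25 ± 0.04 in C1. Ltb, which encodes lymphotoxin beta, rose by 0.56 ± 0.07 but was not called with library size scaling (0.14). Ccl1 stood at 23.9, 17.9 and 15.3 CPM with saline and at 19.2, 58.4 and 100 CPM at 5 mg/kg, so that its pools overlapped, and it was 0.306 CPM or less in the pools of 50 mg/kg. Its change of 1.74 ± 0.33 was 1.09 without CSA 5 mg/kg pool 3 and 0.19, not called, in cells of 4000 to 8000 UMIs. Ccl1 and Xcl1 were the list's members highest at the low dose.

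Inhibitory receptors, the brakes that mark exhausted T cells, are given next. At 5 mg/kg 2 of 18 rose and 5 fell (median -0.10), with library size scaling 0 and 13 (median -0.53), while at 50 mg/kg 3 rose and 14 fell (median -1.23). Within clusters the median of the list at 5 mg/kg ran from -0.25 in C5 to 0.10 in C6, and was 0.09 in C4. Pdcd1, which encodes PD-1, stood at 312, 342 and 341 CPM with saline, 319, 288 and 296 at 5 mg/kg and 21.4, 11.6 and 67.4 CPM at 50 mg/kg. The change at the low dose was -0.14 ± 0.23 (adjusted p = 0.621 by edgeR) and passed the threshold in 4 other fits, from -0.14 with only the saline and 5 mg/kg pools to -0.57 with library size scaling. Tigit, a receptor that competes with Cd226 for ligand, stood at 205, 201 and 206 CPM with saline, 278, 240 and 264 at 5 mg/kg and 95.6, 96.0 and 137 CPM at 50 mg/kg, a rise of 0.35 ± 0.09 at the low dose that became -0.07, not called, with library size scaling and 0.19, not called, with transcript length as an offset. Tigit and Cd160 (0.48 ± 0.06) were the inhibitory receptors highest at the low dose. Cd160 was not called against saline with library size scaling (0.05), nor against 50 mg/kg outside the cycling clusters (0.11) or in cells of 4000 to 8000 UMIs (0.15). Havcr2, which encodes TIM-3, fell by 0.98 to 88.5, 89.0 and 107 CPM from 201, 190 and 176 CPM, and Entpd1, an ATP-splitting surface enzyme, fell by 0.61.

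Among costimulatory receptors 6 of 16 rose and 8 fell, with library size scaling 0 and 11, and 7 were highest or lowest at the low dose. Cd40lg, Crtam, Tnfrsf18 and Cd69 were highest and Cd28, Cd44 and Slamf7 lowest. Tnfrsf18, which encodes GITR, stood at 78.3, 80.4 and 79.1 CPM with saline, 119, 106 and 109 at 5 mg/kg and 90.3, 102 and 87.1 CPM at 50 mg/kg (0.48 ± 0.06 against saline and 0.25 ± 0.06 against 50 mg/kg). Tnfrsf18 was not called against saline with library size scaling (0.06), nor against 50 mg/kg outside the cycling clusters (0.12) or in cells of 4000 to 8000 UMIs (0.16). The call of Cd69 against 50 mg/kg (0.16 ± 0.06, adjusted p = 0.0373 by edgeR) was lost without any 1 of 7 pools and in 3 other fits, with 0.10 without CSA 5 mg/kg pool 3. Cd226, the activating receptor that names the authors' clusters, fell from 282, 267 and 270 to 149, 156 and 175 CPM (-0.76 ± 0.06, adjusted p = 4.01e-09 by edgeR) and was at 66.9 to 77.9 CPM with 50 mg/kg. It fell within 5 of 8 clusters. Icos (-0.31 ± 0.08), Slamf1 (-0.46 ± 0.08) and Tnfrsf1b (-0.74 ± 0.06) fell as well, Slamf1 not with transcript length as an offset (-0.10) and Icos not in cells of 4000 to 8000 UMIs (-0.17).

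Genes that TCR and calcineurin-NFAT signals induce fell for 13 and rose for 7 of 32 tested (median -0.17), and at 50 mg/kg for 20 and 7 (median -0.93). At 5 mg/kg 19 fell and 4 rose with library size scaling (median -0.60). With transcript length as an offset 10 fell and 7 rose (median -0.05). Within clusters the median of the list at 5 mg/kg ran from -0.23 in C7 to 0.06 in C6, and was -0.07 in C4. Tox, a factor that sets up exhaustion, stood at 152, 170 and 170 CPM with saline and at 112, 106 and 114 CPM at 5 mg/kg (-0.57 ± 0.08, adjusted p = 4e-06 by edgeR), against 7.91, 7.97 and 12.6 CPM at 50 mg/kg. Cblb, a ubiquitin ligase that limits TCR signals, fell by 0.88, and Nfatc1, itself an NFAT target, fell by 0.64. Bcl2a1b, a survival gene with near-identical copies, rose by 0.82. The members highest at the low dose were Batf, Spp1, Sostdc1 and Nrgn, and Dusp4 and Dusp5, phosphatases that switch off ERK, were lowest. Among genes of calcineurin, NFAT and the proteins that bind CSA, 8 of 21 rose and 7 fell, with library size scaling 3 and 12. Ppia, which encodes cyclophilin A, stood at 2872, 2819 and 2824 CPM with saline and 4729, 4818 and 4690 CPM at 5 mg/kg (0.74 ± 0.03, adjusted p = 1.5e-12 by edgeR). Fkbp1a, the target of tacrolimus, rose by 0.66 ± 0.04, while Nfatc2 fell by 1.08 and Nfatc3 by 0.73. Ppic was the only member highest at the low dose.

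Of 23 genes of naive and memory T cells 11 rose and 4 fell (median 0.15), but with library size scaling 3 rose and 11 fell. Within clusters the median of the list was below 0, from -0.29 in C5 to -0.04 in C7, except in C4 (0.11). In C5 4 of 20 rose and 7 fell, beside 1079 higher and 1358 lower of 6654 genes, and in C4 3 of 17 rose and 0 fell, beside 160 and 110 of 8404. Dapl1, high in naive CD8+ cells, rose from 16, 10.7 and 15.9 to 36.5, 42.0 and 38.6 CPM (1.47 ± 0.15), Klf2, which drives genes of exit from tissue, by 0.43 ± 0.04 (0.0102, not called, with library size scaling), and Ly6c2 by 0.70 ± 0.10. Id3, a factor of memory precursors, stood at 24, 27.4 and 31.6 CPM with saline, 59.2, 46.7 and 49.7 at 5 mg/kg and 31.6, 34.5 and 37.7 CPM at 50 mg/kg, and its rise of 0.89 ± 0.10 was called within C5 alone (0.78 ± 0.15). Il7r, the interleukin 7 receptor, stood at 108, 113 and 109 CPM with saline and 179, 135 and 124 CPM at 5 mg/kg. Its change of 0.39 ± 0.10 was 0.23 without CSA 5 mg/kg pool 1, and was not called with library size scaling (-0.04) or outside the cycling clusters (0.18). Bcl2 (0.33 ± 0.10) lost its call without the same pool (0.20), outside the cycling clusters (0.18) and with library size scaling (-0.09). Tcf7, the factor that keeps T cells stem-like, stood at 54.4, 64.1 and 66.2 CPM with saline and 88.3, 67.1 and 55.8 CPM at 5 mg/kg, and its change of 0.15 ± 0.12 (adjusted p = 0.304 by edgeR) was 0.31, called, without CSA 5 mg/kg pool 3, 0.89, called, in cells of 4000 to 8000 UMIs, and -0.02, not called, without pool 1.

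Lowest at the low dose on the same list were S1pr1, Foxo1 and Foxp1. S1pr1, the receptor by which T cells leave lymphoid organs, stood at 168, 156 and 154 CPM with saline, 124, 107 and 127 at 5 mg/kg and 168, 157 and 159 CPM at 50 mg/kg (-0.41 ± 0.06 and -0.43 ± 0.06). The fall against saline was -0.04, not called, in cells of 4000 to 8000 UMIs and -0.11, not called, with transcript length as an offset. Foxo1, which activates Il7r, stood at 75.7, 77.0 and 78.1 CPM with saline, 70.3, 57.9 and 63.6 at 5 mg/kg and 111, 107 and 107 CPM at 50 mg/kg. Its change of -0.28 ± 0.06 turned to 0.35 with transcript length as an offset, and was not called outside the cycling clusters (-0.20) or in cells of 4000 to 8000 UMIs (-0.13).

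Of 18 factors of effector differentiation 2 rose and 10 fell (median -0.28). Prdm1, which encodes Blimp-1, fell from 40.5, 43.2 and 39.9 to 23.4, 26.4 and 24.1 CPM (-0.74 ± 0.09), and Ikzf3, an Ikaros family factor, fell by 0.55, while Id2 rose from 385, 366 and 382 to 657, 697 and 678 CPM (0.84 ± 0.07). Eomes and Stat4 were lowest at the low dose. Cytokine receptors fell for 13 and rose for 3 of 19 (median -0.31), among them Tgfbr2 (-0.64 ± 0.07) and Ifnar1 (-0.72 ± 0.08), both lowest at the low dose, while Il7r and Il27ra were highest, although Tgfbr2 was not called with transcript length as an offset (-0.12) and Ifnar1 not against 50 mg/kg outside the cycling clusters (-0.26). Of 11 killer lectin-like receptors 4 rose and 1 fell (median 0.12, and -0.30 with library size scaling), with Klrd1, which encodes CD94, at 0.66 ± 0.05 and Klrk1, which encodes NKG2D, at 0.41 ± 0.07. Klrg1, a mark of short-lived effector cells, stood at 30.9, 30.6 and 23.9 CPM with saline, 16.5, 25.2 and 22.6 at 5 mg/kg and 206, 216 and 113 CPM at 50 mg/kg, and its change of -0.37 ± 0.26 at the low dose was not called (adjusted p = 0.23 by edgeR), but passed the threshold in 4 other fits, from -0.37 with only the saline and 5 mg/kg pools to -0.80 with library size scaling, and at -0.38 without CSA 50 mg/kg pool 3. Of 22 homing and adhesion genes 7 were higher and 7 lower, with library size scaling 0 and 16, with Cx3cr1 at -0.78 ± 0.09.

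On the TMM scale cell cycle genes differed by phase. Of 34 mitosis genes 24 fell and 6 rose (median -0.45), and with library size scaling 29 fell and 2 rose. Outside the cycling clusters 3 fell and none rose, beside 2206 lower and 2296 higher of all 9591 genes tested there. Within the cycling C2 21 rose and 1 fell (median 0.32), beside 1788 higher and 1736 lower of 9386 genes. Within C4 4 rose and none fell, beside 160 higher and 110 lower of 8404 genes. Within C3 7 rose and 11 fell, beside 1558 higher and 1344 lower of 8034 genes. Mki67 stood at 1004, 1025 and 953 CPM with saline and 478, 478 and 573 CPM at 5 mg/kg (-0.96 ± 0.07, adjusted p = 1.99e-09 by edgeR), fell within C2 (-0.29 ± 0.06) and C3 (-0.58 ± 0.07) and rose within C0 (0.49 ± 0.17) and C4 (0.56 ± 0.09). Of 37 S phase genes 13 rose and 13 fell, with library size scaling 1 and 28, and outside the cycling clusters 0 and 4. Within C2 11 S phase genes rose and 5 fell, within C3 3 and 3, and within C4 0 and 11 (median -0.53). Dut, Gins2, Tk1, Pold1 and Rfc4 were highest at the low dose. Dut, which clears dUTP, rose by 0.58 ± 0.05 but was not called in cells of 4000 to 8000 UMIs (-0.00954) or outside the cycling clusters (0.14), and Mcm4 of the replicative helicase fell by 0.55. Of 20 replication-dependent histone genes 13 fell and 4 rose (median -0.60, and -2.06 at 50 mg/kg), with Hist1h1b at -1.02 ± 0.04 and lower in 8 of 8 clusters. These transcripts mostly lack a poly(A) tail, so how well a poly(A) library captures them limits their values.

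Other metabolic and housekeeping lists are given next. Of 31 proteasome genes 27 rose and 1 fell (median 0.45, and 14 and 8 with library size scaling), with Psma7 at 0.82 ± 0.04. Annexins, S100 proteins, galectins and lamins rose for 18 and fell for 2 of 22 (median 0.70), with library size scaling 11 and 5. Crip1, a small LIM protein, stood at 1165, 1196 and 1186 CPM with saline and 3844, 3887 and 3755 CPM at 5 mg/kg (1.70 ± 0.03), S100a6 rose by 1.57 ± 0.04, and Ahnak, a giant scaffold protein, fell by 0.79. S100a8, a calprotectin subunit of neutrophils and again 1 of the myeloid genes, stood at 24, 39.5 and 34.6 CPM with saline and 67.8, 66.6 and 61.8 CPM at 5 mg/kg (0.98 ± 0.12). Of 20 glycolysis genes 9 rose and 6 fell, with library size scaling 4 and 10. Gapdh rose by 0.83 ± 0.04, Ldha by 0.54 ± 0.04, and the glucose transporter Slc2a3 fell by 0.95. Tpi1, Pkm, Aldoa and Ldha were highest at the low dose, although the difference of Ldha from 50 mg/kg (0.14 ± 0.04) lost its call without CSA 5 mg/kg pool 2 (0.12) or pool 3 (0.13), without CSA 50 mg/kg pool 2 (0.11) and outside the cycling clusters (0.03).

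Interferon-stimulated genes split, 17 higher and 16 lower of 52 tested (median 0.04, and with library size scaling 2 higher and 29 lower). The split varied by cluster, given here with all genes tested in brackets. In C0 9 rose and 2 fell (859 and 450). In C2 4 rose and 13 fell (1788 and 1736), in C3 2 and 16 (1558 and 1344) and in C5 2 and 17 (1079 and 1358). C1 and C7 had 0 calls, C4 2 and 0, and C6 1 and 3. Outside the cycling clusters 12 rose and 19 fell (2296 and 2206). Ifi27l2a stood at 394, 404 and 409 CPM with saline and 919, 890 and 727 CPM at 5 mg/kg (1.07 ± 0.15), Bst2, which tethers virus particles, rose by 0.65 ± 0.09, and Parp14 fell by 0.70. Iigp1, Usp18, Isg20 and Oas1a were highest and Ifi209, Oas3 and Ifit2 lowest at the low dose, so the list held members at both extremes. Ifitm1 and Ifitm3 were not on it. Genes of MHC class I presentation rose for 11 and fell for 5 of 21 (median 0.19), with library size scaling 5 and 13, led by Psme1 of the proteasome activator (0.86 ± 0.05), while Canx fell by 0.80.

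Among the remaining lists, sterol synthesis and uptake genes fell for 11 and rose for 4 of 23 (median -0.31). Srebf2, the factor that drives the pathway, stood at 48.9, 49.7 and 49.5 CPM with saline, 31.3, 35.1 and 34.9 at 5 mg/kg and 57.7, 57.5 and 58.1 CPM at 50 mg/kg, which made it lowest at the low dose. Genes of apoptosis and survival rose for 7 and fell for 3 of 21, with library size scaling 5 and 12, with Bax (0.78 ± 0.05), Bad (0.97 ± 0.08) and Xiap (-0.51 ± 0.07) named. Genes of Myc, amino acid uptake and the nucleolus rose for 8 and fell for 6 of 24, with library size scaling 0 and 17. ER chaperone genes rose for 6 and fell for 10 of 22, with library size scaling 1 and 17, and cytosolic heat shock genes rose for 6 and fell for 5 of 15, with library size scaling 1 and 12. All 4 tested small nucleolar RNA host genes rose. Of the lists kept for other cells and handling, 0 of 5 erythroid genes were called, 1 rose and 1 fell of 6 CD4+ and regulatory T cell genes and of 5 natural killer and gamma delta T cell genes, and 6 rose and 2 fell of 14 genes that tissue dissociation induces, with library size scaling 2 and 7.

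**Figure D5:**
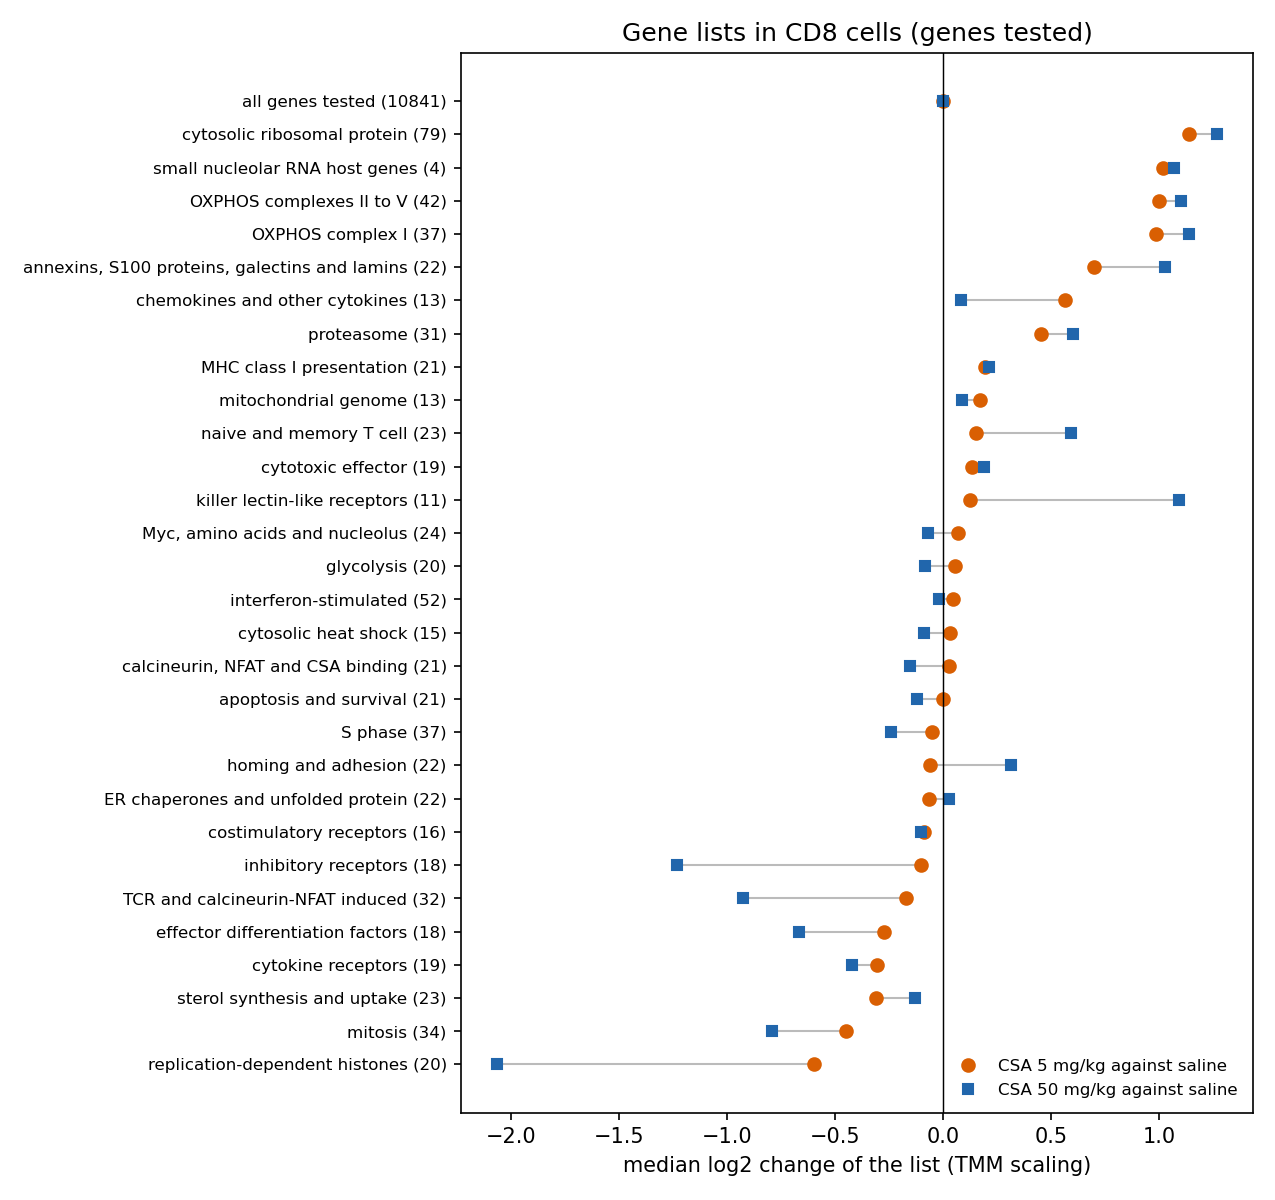
Median log2 change of the tested genes of each list except those for other cells and handling (y axis, number tested in brackets) at CSA 5 mg/kg and at CSA 50 mg/kg against the same saline pools (x axis, TMM scaling). The ribosomal protein genes lie at 1.14 with 5 mg/kg and 1.26 with 50 mg/kg, and the inhibitory receptors lie at -0.10 with 5 mg/kg and -1.23 with 50 mg/kg.

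Fewer cells belonged to expanded clones at the low dose. Cells in a clonotype of 2 or more cells, by the amino acid sequences of the TCR chains, made up 38.1%, 38.3% and 37.8% of clonotyped cells in the saline pools and 23%, 22.3% and 22.6% at 5 mg/kg, with 28.0%, 20.4% and 24.7% at 50 mg/kg. The low-dose pools were closely alike and separate from saline (exact permutation p = 0.1, the smallest that 3 pools against 3 allow). Simpson's index, the chance that 2 cells share a clonotype, was 0.00477, 0.00369 and 0.00149 with saline and 0.000772, 0.000783 and 0.00056 at 5 mg/kg, again without overlap (p = 0.1 by the exact permutation test). The largest clonotype held 5.34%, 5.04% and 1.63% of cells in the saline pools and 1.06%, 1.43% and 0.904% at 5 mg/kg. The pools at 5 mg/kg held 565 to 885 clonotyped cells and the saline pools 1124 to 1287, and such a share depends on how many cells are sampled. The 50 mg/kg pools held 1001 to 1145 clonotyped cells, and their shares in expanded clonotypes lay on both sides of those of the low dose.

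The low-dose change was also set against that of the CD4+ cells of the same mice and captures. A test of the difference between the CD8+ and the CD4+ change, with pool as a block, called 402 of 11001 genes (3.65%), 233 with a higher (2.12%) and 169 with a lower change (1.54%) in CD8+ cells. Ccl5 differed by 1.12 ± 0.09 (adjusted p = 5.96e-08 by edgeR), since it stood at 0.03 ± 0.10 in CD4+ cells. Of the 16 genes highest or lowest at the low dose, Hist1h2ae alone differed past the threshold (0.30 ± 0.07, adjusted p = 0.00908 by edgeR), and Fcer1g was the only 1 of them not called in CD4+ cells (0.45 ± 0.21, adjusted p = 0.0822 by edgeR).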

How the data were processed

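Donor CD4+ and CD8+ T cells were captured with the 10x 5' chemistry, 1 capture per treatment, and read as RNA, hashtag and TCR libraries. The submitters' processing notes name Cell Ranger, the mm10 build and Seurat 3.0.0. The deposited table held raw UMI counts per gene and cell, and the authors' cell annotation gave the pool, the cluster, the clonotype and the mitochondrial share of UMIs as a fraction. The authors' clusters were matched to their names by their cell numbers. Counts were summed per pool without further filters on cells, no doublet caller was run, and 18029 genes were given.

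Genes that passed edgeR's filterByExpr were fitted with edgeR 4.0.16 (R 4.3.3; TMM, quasi-likelihood test) over all 9 CD8+ pools, with Benjamini-Hochberg adjustment over all genes tested. The same fit was made in each cluster with at least 10 cells in every pool, and the CD4+ change (without TEa cells) was set against the CD8+ change with pool as a block. On simulated counts for 10709 genes, 200 of the better counted genes were shifted by 1 log2 unit, as many up as down. The test called 99% of these and 9 unchanged genes. Far more genes were called in the real data, so the simulation does not give the error rate there. Shares and clonality were compared by exact two-sided permutation tests over pools. Nothing in the labels says that the pools of a group were prepared apart from the shared capture, so the spread between them may be technical.

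Named genes were first the 6 largest rises and falls, and the 8 highest and 8 lowest at 5 mg/kg ranked by the smaller of the 2 differences. These needed a mean of at least 50 CPM, a call and no overlap of pools. Up to 3 genes per list and direction were also named, which needed only a call. Genes set by name needed none of these. The comparison and the 35 gene lists were chosen with earlier results of these data known. Alternatives were DESeq2 1.42.0, no filter, library size only, only the 2 groups compared, a block for the pool number, only the non-cycling clusters, cells of 4000 to 8000 UMIs, and each pool left out. Cells with 1 strong hashtag (second hashtag under 0.5 of the strongest), transcript length as an offset and the fit of C4 without 50 mg/kg were added after seeing the data. Some named genes are not reported here.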

Additional observations from a re-analysis of the deposited data

Results flagged for a closer look

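These named genes had a change at CSA 5 mg/kg that differed between CD8+ and CD4+ cells of the same pools (adjusted p under 0.05, interaction test of edgeR with pool as a block, over 11001 genes). Each value is the CD8+ minus the CD4+ log2 change, and the 2 changes come from the same 2 captures. Among ribosomal proteins the difference was 0.20 for Rpl38, 0.22 for Rps28, 0.18 for Rps29, 0.21 for Rps21 and 0.35 for Rpl41. Among OXPHOS genes of the nucleus the difference was 0.30 for Atp5k, 0.29 for Atp5e, 0.34 for Cox7c and 0.20 for Cox6c. Among genes of the mitochondrial genome the difference was -0.36 for mt-Nd3 and -0.24 for mt-Co3. Among effector and surface genes of lymphocytes the difference was 1.12 for Ccl5, 0.31 for Nkg7, 0.35 for Klrd1, 0.37 for Il7r, 0.31 for Ly6c2, -0.53 for Havcr2 and -0.44 for Itga4. Among regulators and binding proteins the difference was 0.26 for Id2, 0.15 for Ppia and -0.39 for Cblb. For the glucose metabolism genes it was 0.26 for Gapdh and -0.52 for Slc2a3. Among histones the difference was 0.30 for Hist1h2ae and -0.27 for Hist1h1b. For the remaining genes it was -0.61 for Gm26917, -0.28 for Huwe1, -0.40 for Canx, 0.29 for Crip1, 0.29 for S100a6 and -0.30 for Ahnak.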

How the results depend on the processing

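Against saline, the number of genes called at 5 mg/kg lay between 4502 (outside the cycling clusters) and 7450 (library size only) over all alternatives, beside 6523, with 5579 by DESeq2. Genes highest or lowest at the low dose (634) numbered 393 by DESeq2 (241 and 152), 356 in cells of 4000 to 8000 UMIs (238 and 118) and 500 to 658 with a pool left out. The count against 50 mg/kg (4443) was 2836 outside the cycling clusters. With library size only, C0 had 2424 calls (425 higher, 1999 lower) and C6 1032 (190 and 842). The CD8+ and CD4+ changes differed for 257 genes by DESeq2 (217 and 40), for 460 with library size only (183 and 277) and for 167 to 477 with a pool left out: 220 without Saline pool 1, 167 without Saline pool 2, 203 without CSA 5 mg/kg pool 1 and 169 without pool 2. The difference in the share of C8 ran from -0.63 to 0.20 percentage points, with 0.10 without Saline pool 1 and 0.20 without CSA 5 mg/kg pool 1.

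Outside the cycling clusters Hist1h2ae (-0.18) and Mki67 (0.28) changed sign. With library size only so did Tigit (-0.0716), Cd69 (-0.00137), Klrk1 (-0.0169), Il7r (-0.0394), mt-Co3 (-0.10), Tcf7 (-0.28) and Bcl2 (-0.0890). Foxo1 was 0.35 with transcript length as an offset, Dut was -0.00954 in cells of 4000 to 8000 UMIs, and Tcf7 ran from -0.0174 to 0.31 with a pool left out. The cause of these changes was not tested. Pools of the same number did not deviate together (r from -0.25 to 0.15), but 3 pools per group are too few to exclude handling shared by number. From pool 1 to pool 3 the share of cells with 2 strong hashtags ran from 0.211% to 5.93% with saline. It ran from 0% to 15.7% at 5 mg/kg and from 0% to 11.9% at 50 mg/kg. A replicate block by pool number gave 6464 calls against saline and 600 genes highest or lowest at the low dose, and Cd69 against 50 mg/kg (0.16) lost its call. Of the clusters, C8 was not tested because 1 pool held 9 of its cells.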
